A study of Mus musculus with 12 samples.

Results

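The transcriptome of NIH3T3 cells that received UBF oligo 1, the first of 2 independent siRNAs against UBF, was compared with that of cells that received an siRNA named for EGFP (sirEGFP). The comparison used 6 of the 12 arrays in the series, 3 with oligo 1 and 3 with sirEGFP, chosen by their titles, and 19938 genes of the 19938 measured on all 12 arrays. NIH3T3 is an immortalised line of mouse fibroblasts, so each group is a model of 1 cell line and not of a tissue. Both groups were transfected with Dharmafect 2 reagent and 40 nM siRNA, and total RNA was taken 48 h later. The other 6 arrays hold oligo 2, the second siRNA against UBF at the same dose and time, and Mock, which received the reagent with no siRNA. The design text calls the 3 arrays of a group biological replicates.

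UBF is the protein encoded by Ubtf. It binds ribosomal RNA genes in the nucleolus and acts with RNA polymerase I (Pol I) in their transcription. Genes for DNA replication and for mitosis are transcribed in waves in dividing cells: those of the G1/S transition are known targets of E2F factors, and those of G2 and M phase are known targets of the MuvB-based DREAM and MYB-FOXM1 complexes, which act through a promoter element called CHR. In quiescent cells both sets are held low.

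The deposited log2 values had medians of 5.38 to 5.54 across the arrays, and Pearson's r across genes was 0.980 to 0.994 between arrays of the same group. Within groups, 41.5% of the variance lay along 1 axis, whose ends were oligo 1 array 2 at one side and oligo 1 array 1 and sirEGFP array 1 at the other. List counts are also given below without these 3 arrays, a fit that keeps 1 oligo 1 array and assumes that it varies like the other groups. The 13 fibroblast markers had a median level of 9.08 (range 6.92 to 12.8). Marker lists of macrophages and leukocytes, epithelium, endothelium, adipocytes and skeletal muscle had medians between 4.68 and 5.13. Between sirEGFP and Mock, limma called 0 genes at an adjusted p under 0.05, and 1247 genes had an unadjusted p under 0.05.

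Ubtf itself was lower with oligo 1 on every array, but its difference from sirEGFP did not pass the test. It read 8.68, 8.31 and 8.04 with sirEGFP and 7.998, 7.74 and 7.64 with oligo 1, on the log2 scale. The oligo 1 arrays all lay below the sirEGFP arrays, although the highest of them was within 0.05 of the lowest sirEGFP array. The Ubtf difference, with 3 arrays a group, was -0.55 ± 0.17, a 1.47-fold lower level, with a limma adjusted p of 0.107. Here and below, ± gives limma's SE, whose spread is estimated over all 12 arrays and moderated across genes. It is not the SE of the 6 arrays compared alone. With the replicate number as a block, limma gave an adjusted p of 0.0172, although same-numbered sirEGFP and oligo 1 arrays did not all deviate together. No fit that left out 1 array called Ubtf. An exact two-sided permutation test over the 20 splits of these 6 arrays gave p = 0.1, the smallest that the design allows. Against Mock, where Ubtf read 8.54, 8.63 and 8.41, the difference was -0.74 and limma gave an adjusted p of 0.0252. The difference in Ubtf between oligo 1 and oligo 2 did not pass the test, at 0.05 (95% interval -0.30 to 0.40).

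Oligo 1 changed 493 of 19938 genes against sirEGFP, 2.47% of those tested, at a limma adjusted p under 0.05 (called). Of these, 285 were lower (1.43% of all genes) and 208 were higher (1.04%). Higher genes made up 42.2% of the calls, and 31.1% after each array was centred on its median. The median change of the lower genes was -0.68 on the log2 scale and that of the higher genes 0.72, while the median over all genes was 0.02. All 3 oligo 1 arrays lay beyond all 6 sirEGFP and Mock arrays for 251 of the lower genes, where 3.22% of all genes lay below these 6 arrays, and for 177 of the higher genes, where 4.4% of all genes lay above them. They lay above all 9 other arrays for 101 of the higher genes, where this held for 1.89% of all genes. For 204 of the lower genes they lay below all 9, where this held for 2.02% of all genes. The called genes were picked on the oligo 1 and sirEGFP values, so these counts describe them and are not separate support. A change of at least 2-fold was reached by 34 of the lower and 32 of the higher genes. The lower set was rich in listed cell cycle genes: 111 of its 285 members (38.9%) were in 1 of the 14 cell cycle lists described below, against 2 of the 208 higher genes. The number of genes called moved with single arrays. It was 155 without sirEGFP array 2, 218 without sirEGFP array 3, 260 without oligo 1 array 1, 209 without oligo 1 array 3 and 863 without oligo 1 array 2. With only the 6 arrays compared in the fit, 101 genes were called, and 255 once the 3 extreme arrays of the within-group axis were left out. Genes called in all 12 fits that each left out 1 array numbered 135, of which 81 were lower and 54 higher.

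**Figure D1:**
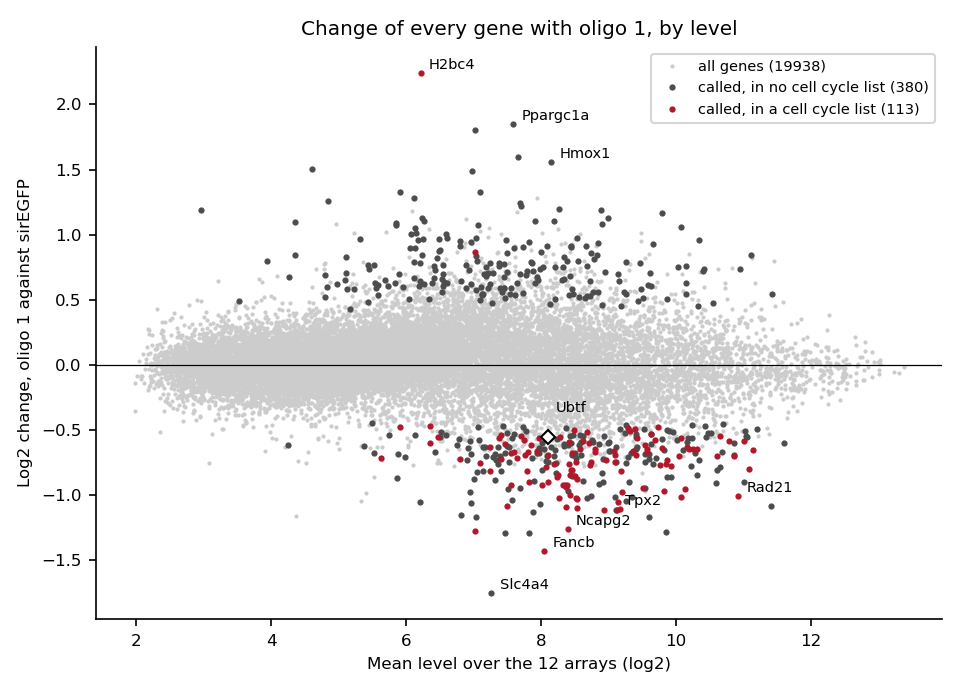
Log2 change with oligo 1 against sirEGFP (vertical) by the mean log2 level over the 12 arrays (horizontal), 1 point a gene. Grey points are all 19938 genes, dark points are called genes in no cell cycle list and red points are called genes of the cell cycle lists, 111 of which lie below 0 and 2 above. The white diamond is Ubtf, which was not called.

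Called genes were unevenly spread over expression levels. Of the 4985 genes with the highest mean level, 223 were called lower and 92 higher. Of the 4985 with the lowest, 1 was called lower and 6 higher. The cell cycle lists were themselves bright, with 255 of 369 members in the highest group. There, 96 of the 255 members (37.6%) were called lower, against 4.47% of all genes at that level.

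Many members of the cell cycle lists fell with oligo 1. Of 369 measured members, 111 were called lower (30.1%, beside 1.43% of all genes) and 258 were not, among them 2 called higher, and the median change was -0.40. All 3 oligo 1 arrays lay below all 3 sirEGFP arrays for 193 members, where this held for 7.18% of all genes. They lay below all 9 other arrays for 123 members, where this held for 2.02% of all genes. Set against the sirEGFP mean, the mean over the 369 members was -0.37, -0.39 and -0.40 on the oligo 1 arrays. It was 0.02, 0.03 and -0.05 on the sirEGFP arrays, 0.00, 0.04 and 0.09 with Mock, and 0.01, -0.06 and -0.04 with oligo 2. The oligo 1 arrays thus stood clear of all 9 others, and close to each other. The mean over all genes stayed between -0.04 and 0.05 on every array.

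The median shift moved less than the number of calls, which rests on a threshold. Over all 12 fits that left out 1 array, 0.426% to 2.06% of all genes were called lower. Over those that left out 1 sirEGFP or oligo 1 array, the median change of the 369 members ranged from -0.38 to -0.43. This median could not move in fits without 1 Mock or oligo 2 array, because those arrays do not enter the difference. The count called lower was 41 without sirEGFP array 2, 62 without sirEGFP array 3, 72 without oligo 1 array 1 and 53 without oligo 1 array 3, each above the share of all genes called lower in the same fit (0.426%, 0.657%, 0.722% and 0.642%). It was 34 with only the 6 arrays compared (0.306% of all genes) and 47 without the 3 extreme arrays (0.542%). Of the 111 members, 40 were called in all 12 such fits. In RNA from whole cultures, fewer cells in S, G2 or M phase and less of each transcript per cell cannot be told apart.

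**Figure D2:**
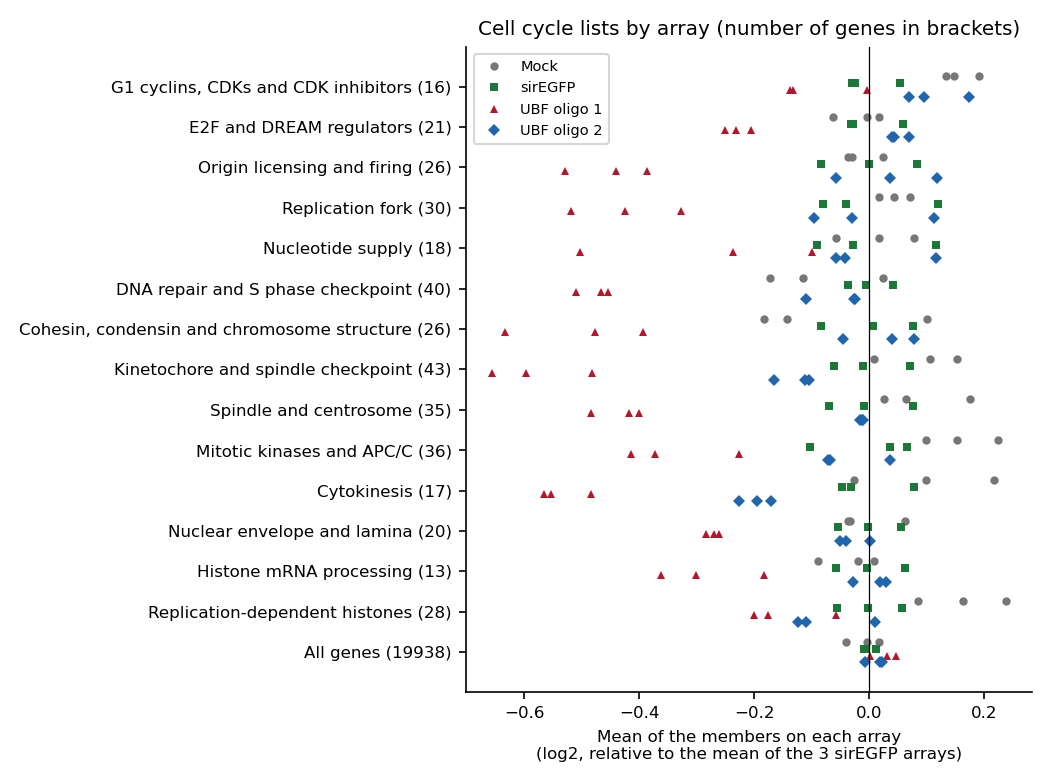
Mean of the members of each cell cycle list on each of the 12 arrays (horizontal, log2, relative to the mean of the 3 sirEGFP arrays), 1 row a list and 1 point an array, with all 19938 genes in the last row. The oligo 1 arrays lie left of all 9 other arrays in 12 of the 14 lists, while in the list of G1 cyclins and in that of replication-dependent histones at least 1 oligo 1 array lies among the others.

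The promoters of the fallen genes were examined for 3 short sequences known from cell cycle promoters. These were the CHR (TTTGAA), 4 E2F words (TTCCCGC, with the variants TTGGCGC, then TTCGCGC, and last TTGCCGC) and the CCAAT box (CCAAT), each searched on both strands. The windows ran from 250 bases before to 50 bases after the first listed start of a gene, in RefSeq's promoter table for build GRCm38.p6, and 15614 of the 19938 genes had one. Shown here are the 200 bases before the start of 4 mitotic genes and 2 genes of DNA synthesis that were called lower, chosen because they hold matches. The mitotic genes are Kif11 (chr19:37376182-37376381, plus strand), Kif15 (chr9:122950881-122951080, plus strand), Ska3 (chr14:57826164-57826363, minus strand) and Cdk1 (chr10:69352913-69353112, minus strand). Pola1 (chrX:93632156-93632355, minus strand) and Rrm1 (chr7:102441495-102441694, plus strand) belong to DNA synthesis. Each line reads 5′ to 3′ on the strand of the gene and ends at the base before the start, with matches to any of the 3 sequences in capitals.
Kif11: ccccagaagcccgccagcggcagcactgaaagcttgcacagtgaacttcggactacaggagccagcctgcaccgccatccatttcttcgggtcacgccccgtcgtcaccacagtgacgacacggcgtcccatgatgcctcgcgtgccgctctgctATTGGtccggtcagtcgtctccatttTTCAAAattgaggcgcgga
Kif15: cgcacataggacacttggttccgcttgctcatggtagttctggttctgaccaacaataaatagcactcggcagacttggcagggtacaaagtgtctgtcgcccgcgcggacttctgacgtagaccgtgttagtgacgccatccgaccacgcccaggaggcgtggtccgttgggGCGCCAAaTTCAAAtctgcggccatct
Ska3: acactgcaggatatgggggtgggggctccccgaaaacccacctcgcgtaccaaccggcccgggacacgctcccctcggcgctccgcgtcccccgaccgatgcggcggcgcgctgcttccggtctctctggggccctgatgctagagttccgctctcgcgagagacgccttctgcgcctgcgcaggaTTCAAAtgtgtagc
Cdk1: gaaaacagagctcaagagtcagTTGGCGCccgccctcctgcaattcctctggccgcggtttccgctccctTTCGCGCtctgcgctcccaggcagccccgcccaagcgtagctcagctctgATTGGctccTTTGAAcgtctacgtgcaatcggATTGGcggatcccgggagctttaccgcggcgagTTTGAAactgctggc
Pola1: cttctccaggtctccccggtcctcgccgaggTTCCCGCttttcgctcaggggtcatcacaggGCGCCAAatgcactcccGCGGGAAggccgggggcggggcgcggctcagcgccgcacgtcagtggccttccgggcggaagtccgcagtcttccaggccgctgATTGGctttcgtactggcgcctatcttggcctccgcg
Rrm1: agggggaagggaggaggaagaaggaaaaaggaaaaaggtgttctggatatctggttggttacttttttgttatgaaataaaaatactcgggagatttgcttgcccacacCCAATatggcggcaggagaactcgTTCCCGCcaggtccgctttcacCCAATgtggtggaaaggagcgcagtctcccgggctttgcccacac

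In Kif11, Kif15 and Ska3 the CHR lies on the minus strand of the gene and reads TTCAAA in the line, with its first base 19, 19 and 14 bases before the start. Cdk1 holds CHR matches 71 and 15 bases before the start, E2F words at 178 and 130 bases, and CCAAT boxes on the minus strand at 80 and 48 bases. Pola1 holds no CHR in this stretch and 3 E2F words, which begin 169, 138 and 121 bases before the start. Rrm1 has 1 E2F word, at 67 bases, with CCAAT boxes at 91 and 45 bases. A match is a description of the letters and not evidence that a factor binds there.

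The CHR was more frequent in mitotic genes and the E2F words in replication and repair genes, over the whole lists. Of all 133 mitosis members with a window, 46.6% held a CHR and 30.1% an E2F word, and of all 94 replication and repair members 12.8% and 55.3%. Among 47 called-lower members of the mitosis lists with a window, 61.7% held a CHR and 31.9% an E2F word. Among 31 called-lower members of the replication and repair lists, 16.1% held a CHR and 74.2% an E2F word. Over all 15614 genes the shares were 15.2% and 13.0%. The called-lower genes in no cell cycle list (136 with a window) held a CHR in 14% and an E2F word in 30.9%. Called-higher genes (161 with a window) held them in 8.07% and 13.7%. Cell cycle members that were not called lower (214) held a CHR in 27.6% and an E2F word in 33.6%, against 44.0% and 49.5% of the 91 that were. The CCAAT box was found in 59.3% of both these sets, and in 38.2% of all genes with a window. These shares were not matched on base composition.

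**Figure D3:**
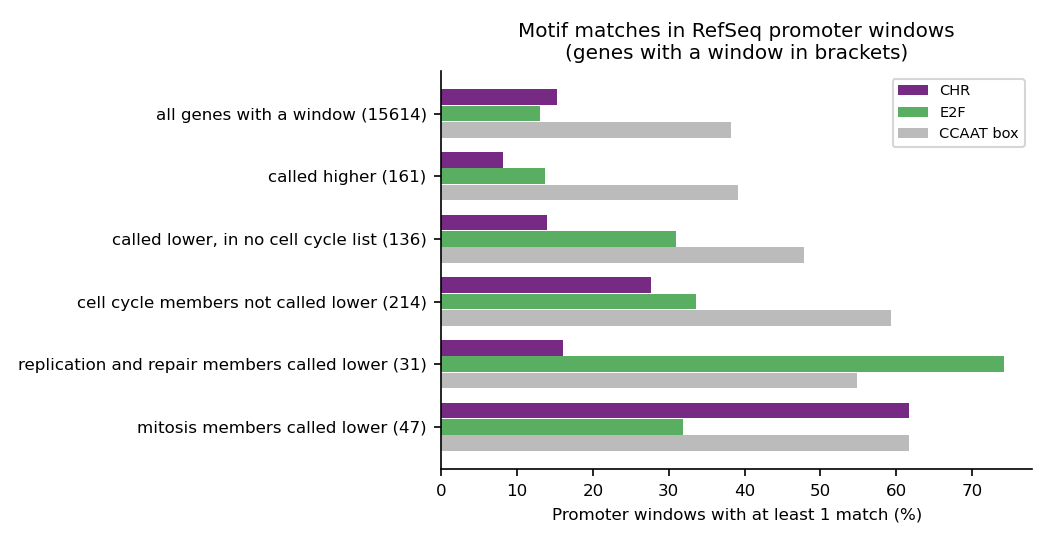
Share of RefSeq promoter windows with at least 1 match to the CHR, to an E2F word or to the CCAAT box (horizontal, percent), for 6 sets of genes with the number of windows in brackets. The CHR bar is longest in the mitosis members called lower (61.7%) and the E2F bar in the replication and repair members called lower (74.2%).

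Some genes that prepare replication origins fell with oligo 1. Of 26 measured members of the origin licensing and firing list, 9 were called lower (34.6%, beside 1.43% of all genes) and 0 higher. The list's median change was -0.53, and 24 changes were below 0. The count ranged from 3 (without sirEGFP array 2) to 11 over fits without 1 array, and was 4 without sirEGFP array 3 or oligo 1 array 3 and 5 without oligo 1 array 1. Without the 3 extreme arrays it was 1, with a median of -0.46. Gins1, a subunit of the GINS part of the replicative helicase, read 8.64, 8.70 and 8.82 with sirEGFP and 7.76, 7.82 and 7.82 with oligo 1. The groups were far apart, and Gins1 fell by 0.92 ± 0.12 (SE), or 1.89-fold, at a limma adjusted p of 0.00116. Cdc7, the kinase that triggers origin firing, read 8.11, 7.97 and 8.36 with sirEGFP and 7.20, 7.22 and 7.32 with oligo 1. The groups did not overlap, and Cdc7 fell by 0.90 ± 0.16 (adjusted p 0.00657 with limma). Mcm4, a subunit of the MCM helicase, fell by 0.65 ± 0.11 (limma adjusted p 0.00767), from 9.84, 9.79 and 9.74 to 9.05, 9.14 and 9.23. Topbp1, listed with the repair genes, helps activate both the helicase and the ATR checkpoint kinase. It read 9.39, 9.47 and 9.50 with sirEGFP and 8.63, 8.70 and 8.58 with oligo 1, with no overlap, and fell by 0.82 ± 0.11 (limma adjusted p 0.00142).

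Some genes of the replication fork and of nucleotide supply fell as well. All 30 measured fork genes had changes below 0, with a median of -0.42, and 8 were called lower (26.7%, beside 1.43% of all genes). Omission of 1 array gave 3 to 11 such calls, with 3 without sirEGFP array 2, oligo 1 array 1 or oligo 1 array 3, 4 without sirEGFP array 3, Mock array 1 or oligo 2 array 3, and 5 without sirEGFP array 1 or oligo 2 array 1. Without the 3 extreme arrays 1 was called, with a median of -0.34. Pola1, the catalytic subunit of DNA polymerase alpha, read 9.56, 9.60 and 9.65 with sirEGFP and 8.29, 8.82 and 8.79 with oligo 1. Every oligo 1 array was well below the sirEGFP arrays, which lay close together, and Pola1 fell by 0.97 ± 0.16, or 1.96-fold (limma adjusted p 0.00543). Pold3, a subunit of polymerase delta, fell by 0.67 ± 0.12 (limma adjusted p 0.00729), and Rfc3, a subunit of the clamp loader, by 0.58 ± 0.11 (limma adjusted p 0.0116). Pcna, which encodes the clamp itself, changed by -0.27 ± 0.12 and was not called (limma adjusted p 0.314). In nucleotide supply, 6 of 18 members were called lower (33.3%, beside 1.43% of all genes), with a median of -0.28. That count was 1 without sirEGFP array 2, 2 without sirEGFP array 3 or oligo 1 array 3, and 4 without oligo 1 array 1 or oligo 2 array 3. It was 0 without the 3 extreme arrays, with a median of -0.17. Rrm1, the large subunit of ribonucleotide reductase, read 10.83, 10.91 and 10.75 with sirEGFP and 10.29, 10.06 and 10.03 with oligo 1. The 2 ranges were separate, and Rrm1 fell by 0.70 ± 0.12 (limma adjusted p 0.00644).

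In the DNA repair and S phase checkpoint list, 16 of 40 measured members were called lower and 0 higher, with a median of -0.46. The share called lower was 40%, beside 1.43% of all genes. The count ranged from 11 to 16 over fits without 1 array, and was 10 without the 3 extreme arrays. Fancb, a member of the Fanconi anaemia core complex that repairs crosslinks between DNA strands, had the largest fall of all cell cycle members. It read 8.33, 8.77 and 8.80 with sirEGFP and 6.90, 7.48 and 7.23 with oligo 1. No oligo 1 array came near the sirEGFP arrays, and Fancb fell by 1.43 ± 0.16, or 2.70-fold (limma adjusted p 0.000579). Chek1, the checkpoint kinase that restrains origin firing and mitotic entry, read 9.62, 10.04 and 9.93 with sirEGFP and 8.86, 8.93 and 8.97 with oligo 1. The groups were separate, and Chek1 fell by 0.94 ± 0.12 (limma adjusted p 0.0014). Exo1, a nuclease of mismatch repair and end resection, fell by 0.93 ± 0.13 (limma adjusted p 0.00184). Blm, a helicase that resolves recombination intermediates, fell by 0.85 ± 0.12, and Mre11a, a nuclease that processes DNA breaks, by 0.90 ± 0.13 (limma adjusted p 0.00184 and 0.00265).

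Genes that hold and shape chromosomes fell in part. In the cohesin, condensin and chromosome structure list, 8 of 26 members were called lower (30.8%, beside 1.43% of all genes) and 0 higher. The median was -0.49. Without sirEGFP array 2, sirEGFP array 3 or oligo 1 array 3 the count was 3, without oligo 1 array 1 it was 4, and without oligo 1 array 2 it was 13. It was 5 without the 3 extreme arrays. Ncapg2, a subunit of condensin II, read 8.76, 8.84 and 8.82 with sirEGFP and 7.28, 7.62 and 7.73 with oligo 1. The sirEGFP arrays lay within 0.1 of each other, far above oligo 1, and Ncapg2 fell by 1.26 ± 0.16, or 2.40-fold (limma adjusted p 0.00098). Rad21, the cohesin subunit that separase cuts at anaphase, read 11.16, 11.21 and 11.08 with sirEGFP and 10.00, 10.28 and 10.15 with oligo 1. Its groups were clearly separate, and Rad21 fell by 1.01 ± 0.12, or 2.01-fold (limma adjusted p 0.000616). Ncapd3, another condensin II subunit, fell by 0.78 ± 0.13 (limma adjusted p 0.00558). Cbx5, which encodes the heterochromatin protein HP1 alpha and is in no cell cycle list, read 9.95, 9.93 and 9.97 with sirEGFP and 8.50, 8.80 and 9.03 with oligo 1. It too was lower on every oligo 1 array, and fell by 1.17 ± 0.15 (limma adjusted p 0.00098).

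Kinetochore genes gave the largest median shift among the 14 cell cycle lists. Of 43 measured members, 20 were called lower (46.5%, beside 1.43% of all genes) and 0 higher, and the median change was -0.64. All 3 oligo 1 arrays lay below all 3 sirEGFP arrays for 34 members, where this held for 7.18% of all genes. The calls were sensitive to single arrays, with 3 left without sirEGFP array 2, 11 without sirEGFP array 3, 13 without oligo 1 array 1, 10 without oligo 1 array 3 and 11 without the 3 extreme arrays, although all of these exceeded the share of all genes in the same fits. The Ska complex couples kinetochores to moving microtubules, and its 3 genes were all called. Ska3 read 8.54, 8.88 and 8.90 with sirEGFP and 7.55, 7.93 and 7.84 with oligo 1. The groups did not overlap, and Ska3 fell by 1.00 ± 0.15, or 2.00-fold (limma adjusted p 0.00278). Ska2 read 9.33, 9.70 and 9.67 with sirEGFP and 8.03, 8.81 and 8.54 with oligo 1, and fell by 1.10 ± 0.17 (limma adjusted p 0.00309). Ska1 fell by 1.08 ± 0.20 (limma adjusted p 0.0108), a call lost without sirEGFP array 2 (0.072) or oligo 1 array 3 (0.052). Bub1b, the spindle checkpoint protein BubR1, read 9.37, 9.36 and 9.17 with sirEGFP and 8.56, 8.54 and 8.55 with oligo 1. Its oligo 1 values were almost equal and well below sirEGFP, and Bub1b fell by 0.75 ± 0.12 (limma adjusted p 0.00372).

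In the spindle and centrosome list, 8 of 35 members were called lower (22.9%, beside 1.43% of all genes) and 0 higher. The median was -0.40. The count was 4 without sirEGFP array 2 or oligo 1 array 3, and 6 without the 3 extreme arrays. Tpx2, which nucleates spindle microtubules and activates Aurora A, read 9.45, 9.54 and 9.28 with sirEGFP and 8.40, 8.38 and 8.16 with oligo 1. The gap between the groups exceeded the spread within either, and Tpx2 fell by 1.11 ± 0.12, or 2.16-fold (limma adjusted p 0.000579). Kif11, the motor that pushes spindle poles apart, read 10.29, 10.63 and 10.40 with sirEGFP and 9.37, 9.64 and 9.44 with oligo 1. Its groups were also separate, and Kif11 fell by 0.96 ± 0.14 (limma adjusted p 0.00309). Kif15, a motor with an overlapping role, fell by 1.02 ± 0.15 (limma adjusted p 0.00259). Sass6, which builds the cartwheel of new centrioles, fell by 1.02 ± 0.15 (limma adjusted p 0.00273).

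Among mitotic kinases, their regulators and the anaphase-promoting complex (APC/C), 9 of 36 members were called lower and 0 higher, with a median of -0.23. The share called lower was 25%, beside 1.43% of all genes. The count was 3 without sirEGFP array 2, 5 without oligo 1 array 3, 6 without sirEGFP array 3 and 6 without the 3 extreme arrays. Cks1b, which encodes a small subunit bound to cyclin-dependent kinases (CDKs), read 11.28, 11.39 and 11.26 with sirEGFP and 10.32, 10.73 and 10.49 with oligo 1. Its groups lay over 0.5 apart, and Cks1b fell by 0.80 ± 0.12 (limma adjusted p 0.00273). Birc5, or survivin, part of the chromosomal passenger complex, fell by 0.70 ± 0.11 (limma adjusted p 0.00316), and Melk, a mitotic kinase, by 0.81 ± 0.12 (limma adjusted p 0.00309). Cdk1, the main mitotic CDK, read 9.89, 10.23 and 10.09 with sirEGFP and 9.11, 9.55 and 9.38 with oligo 1. It fell by 0.73 ± 0.13 (limma adjusted p 0.00754), a call that was lost without sirEGFP array 2 (adjusted p 0.0546). Cks2 stood just inside the threshold (limma adjusted p 0.0497, and up to 0.207 over the 10 fits without 1 array in which its call was lost) and the kinetochore gene Zwilch just outside it (0.052).

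Cytokinesis genes had 8 of 17 members called lower (47.1%, beside 1.43% of all genes) and 0 higher. The median was -0.49, and all 17 changes were below 0. The count was 5 without sirEGFP array 2 or oligo 1 array 3, and also 5 without the 3 extreme arrays. Prc1, which bundles the microtubules of the midzone, read 8.83, 8.88 and 8.56 with sirEGFP and 7.51, 7.71 and 7.77 with oligo 1. The oligo 1 arrays were all lower, and Prc1 fell by 1.09 ± 0.14, or 2.13-fold (limma adjusted p 0.00147). Ect2, the exchange factor that activates RhoA at the cleavage furrow, read 10.31, 10.61 and 10.51 with sirEGFP and 9.47, 9.49 and 9.43 with oligo 1. Its groups were separate by more than their spread, and Ect2 fell by 1.01 ± 0.16 (limma adjusted p 0.00309). In the nuclear envelope and lamina list, 6 of 20 members were called lower (30%, beside 1.43% of all genes), with a median of -0.36. That count was 2 without sirEGFP array 2, 3 without sirEGFP array 3, oligo 1 array 1, oligo 1 array 3, Mock array 1, Mock array 3 or any oligo 2 array, and 4 without Mock array 2. It was 0 without the 3 extreme arrays, with a median of -0.31. Lbr, the lamin B receptor, fell by 0.76 ± 0.12 (limma adjusted p 0.00309), and Nup107, a scaffold subunit of the nuclear pore, by 0.61 ± 0.12 (limma adjusted p 0.0105).

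**Figure D4:**
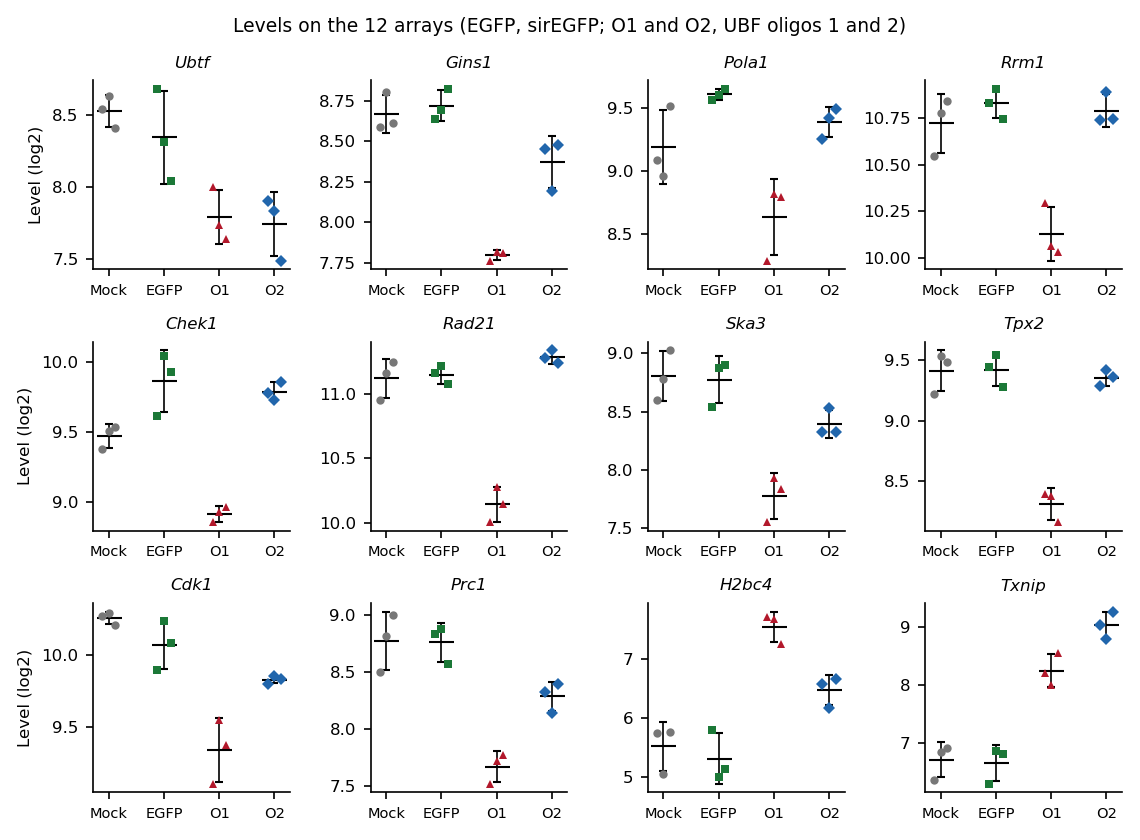
Log2 levels of 12 genes on the 12 arrays, 1 panel a gene, with 3 points a group, a bar at the group mean and whiskers of 1 SD. The vertical axes differ between panels. For Ubtf the sirEGFP arrays spread over 0.6 and the oligo 1 arrays lie just below, whereas from Gins1 to Prc1 the oligo 1 arrays lie below all others.

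Few genes of the G1 list were called, while some regulators of E2F and DREAM targets fell. In the list of G1 cyclins, CDKs and CDK inhibitors, 2 of 16 members were called lower (12.5%, beside 1.43% of all genes), Ccna2 and Cdkn2d, with a median of -0.03. That count was 0 without sirEGFP array 2, sirEGFP array 3, oligo 1 array 3 or the 3 extreme arrays. Ccna2, the cyclin A of S and G2 phase, fell by 0.58 ± 0.11 (limma adjusted p 0.0131), a call lost without sirEGFP array 2, sirEGFP array 3 or oligo 1 array 3, with an adjusted p of at most 0.0785. The Cdkn2d call was lost without those arrays or without oligo 1 array 2 (highest adjusted p 0.137). Ccnd1, or cyclin D1, changed by 0.38 ± 0.20 (limma adjusted p 0.432) and its partner Cdk4 by 0.01 ± 0.21 (limma adjusted p 0.994), neither of which passed the test. Cdkn1b, the CDK inhibitor p27, changed by -0.34 ± 0.14 (limma adjusted p 0.261). Among E2F and DREAM regulators, 4 of 21 members were called lower (19%), with a median of -0.24. That count was 1 without the 3 extreme arrays, sirEGFP array 2, oligo 1 array 1, oligo 1 array 3, Mock array 1 or Mock array 2, and 2 without sirEGFP array 3, Mock array 3 or oligo 2 array 1. Rbl1, which encodes the pocket protein p107 and is itself an E2F target, read 8.56, 8.81 and 8.68 with sirEGFP and 7.85, 7.93 and 7.85 with oligo 1. Its groups were separate, and Rbl1 fell by 0.81 ± 0.11 (limma adjusted p 0.00176). Foxm1, a transcription factor of G2 and M phase genes, changed by -0.12 ± 0.16 and was not called (limma adjusted p 0.839).

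The share of members called differed between protein complexes. These groupings were made after the values had been seen, and are given as counts without a test. Over all genes, 1.43% were called lower and the median change was 0.02. All 3 Ska genes were called lower, as were 3 of 4 genes of the Ndc80 complex, 4 of 8 condensin genes and 4 of 7 genes of the Nup107-160 pore complex. Changes below 0 were found for all 4 Ndc80 genes, 7 of 8 condensin genes and all 7 Nup107-160 genes. In the MCM2-7 helicase, 2 of 6 genes were called, and all 6 changes lay between -0.65 and -0.27. By contrast, 0 of 12 APC/C subunit genes were called by limma, 1 had an unadjusted p under 0.05, and their median change was -0.07. The 7 measured augmin genes, whose products branch spindle microtubules, had 0 calls in limma with a median of -0.35, and 3 had an unadjusted p under 0.05. Of the other groupings, GINS, DNA polymerase alpha with primase and the Mis12 complex had 2 of 4 genes called lower each. Fanconi anaemia genes had 4 of 12. The origin recognition complex had 1 of 6, and replication factor C and the cohesin core 1 of 5 each. CDK inhibitors had 1 of 7 called lower. D cyclins with Cdk4 and Cdk6 had 0 of 5 called by limma, with 1 at an unadjusted p under 0.05.

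Replication-dependent histone genes went both ways. Of 28 measured members, 4 were called lower (14.3%, beside 1.43% of all genes) and 2 higher (7.14%, beside 1.04%). The median was -0.25. The lower count was 1 without any 1 sirEGFP array or without oligo 1 array 3, 2 without oligo 1 array 1 or array 2, and 0 without the 3 extreme arrays. H4c4, a gene for histone H4, read 9.62, 9.27 and 9.22 with sirEGFP and 8.18, 8.39 and 8.38 with oligo 1. The groups were separate, and H4c4 fell by 1.05 ± 0.18, or 2.08-fold (limma adjusted p 0.00645). H2bc4, a gene for histone H2B, had the largest rise of all named genes. It read 5.80, 5.001 and 5.14 with sirEGFP and 7.72, 7.68 and 7.26 with oligo 1. Every oligo 1 array was above every other array, and H2bc4 rose by 2.24 ± 0.23, or 4.73-fold (limma adjusted p 0.000442). H1f2, a linker histone gene, rose by 0.86 ± 0.16 (limma adjusted p 0.00874). Genes of histone clusters are alike in sequence, so probe sets may share signal between copies. Of 13 measured genes for histone mRNA processing, 3 were called lower (23.1%, beside 1.43% of all genes), with a median of -0.47. That count was 0 without sirEGFP array 2, 1 without the 3 extreme arrays, sirEGFP array 3, Mock array 2, Mock array 3, oligo 1 array 1, oligo 1 array 3 or oligo 2 array 3, and 5 without oligo 1 array 2.

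In the lists of ribosome production few members were called, all of them lower. Of 24 measured genes of the Pol I machinery, 7 were lower and 1 higher at an unadjusted p under 0.05, with a median of -0.06. All 3 oligo 1 arrays lay below all 3 sirEGFP arrays for 7, where this held for 7.18% of all genes. They lay above them for 1, where this held for 8.33%. Limma called 1 of the 24 lower (4.17%, beside 1.43% of all genes) and 0 higher. It was Polr2h, which encodes a subunit shared by the 3 nuclear RNA polymerases, and its call (-0.52 ± 0.12, limma adjusted p 0.0325) was lost without any 1 sirEGFP array and without oligo 1 array 1 or array 3 (highest adjusted p 0.143). Of 54 cytosolic ribosomal protein genes, limma called 0, 1 had an unadjusted p under 0.05, and the median was -0.05. Of 63 ribosome biogenesis factors, 48 changes were below 0, with a median of -0.15. At an unadjusted p under 0.05, 11 were lower and 1 was higher, and limma called 1 lower (1.59%). This was Utp15, which acts in early processing of the small subunit and in Pol I transcription, and it fell by 0.62 ± 0.11 (limma adjusted p 0.00844). The lower counts of these 3 lists were all 0 without the 3 extreme arrays. Of 51 small nucleolar RNAs (snoRNAs), 43 changes were below 0, with a median of -0.34. At an unadjusted p under 0.05, 19 were lower and 0 higher, and limma called 3 lower (5.88%). The snoRNA count was 1 without sirEGFP array 2, 2 without the 3 extreme arrays, sirEGFP array 3, Mock array 3, oligo 1 array 1 or 3, or oligo 2 array 1 or 3, and 5 without oligo 1 array 2. Snora73b read 7.30, 7.78 and 7.94 with sirEGFP and 6.05, 6.95 and 6.50 with oligo 1, with no overlap, and fell by 1.17 ± 0.20 (limma adjusted p 0.00585).

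**Figure D5:**
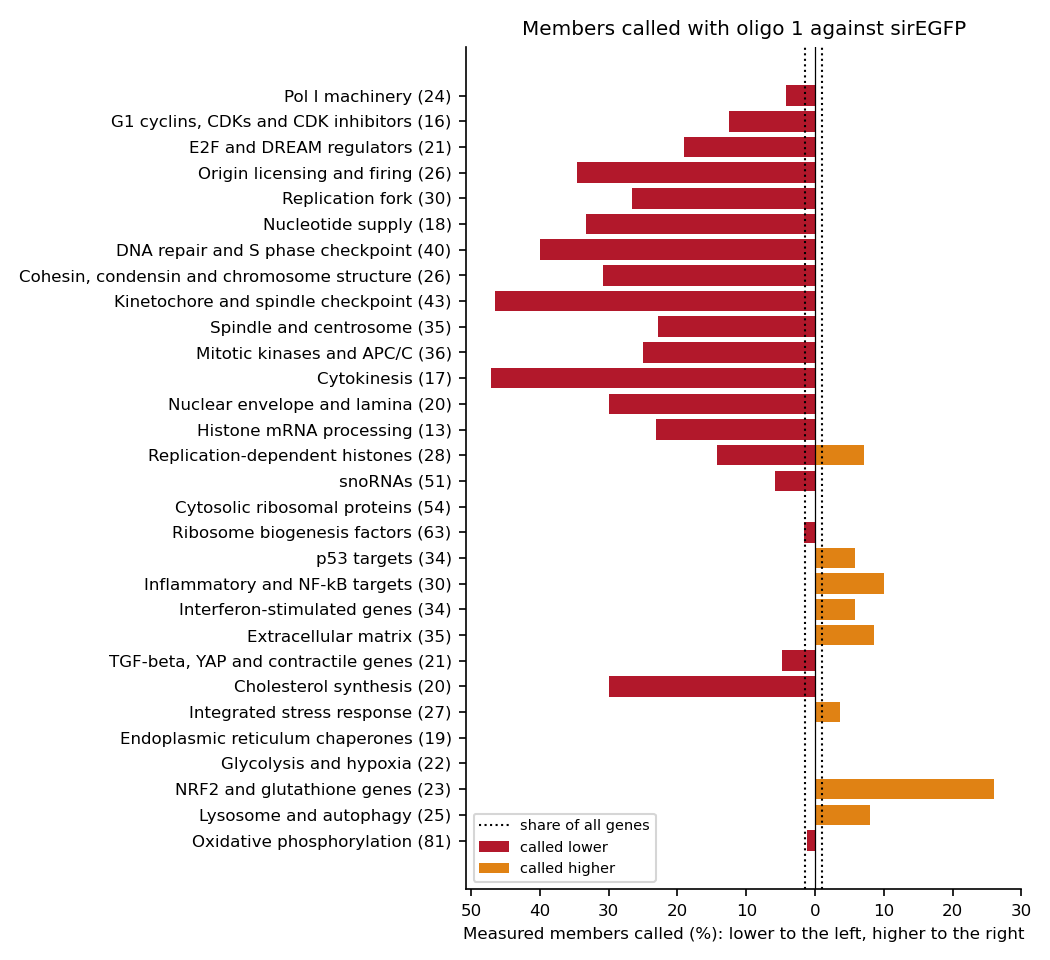
Percent of the measured members of each list that were called with oligo 1 against sirEGFP, lower to the left and higher to the right, with the number of members in brackets. Dotted lines mark the shares over all genes, 1.43% lower and 1.04% higher. The cell cycle lists and cholesterol synthesis extend to the left, and the list of NRF2 and glutathione genes extends farthest to the right, at 26.1%.

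Outside the cell cycle, some genes of cholesterol synthesis fell. Of 20 measured members, 6 were called lower (30%) and 0 higher, with a median of -0.41. Those 6 calls became 2 without sirEGFP array 2, 3 without sirEGFP array 3, oligo 1 array 1, oligo 1 array 3, oligo 2 array 1 or oligo 2 array 3, and 4 without Mock array 2, Mock array 3 or oligo 2 array 2. Without the 3 extreme arrays 1 was called, with a median of -0.24. Idi1, the isomerase that makes dimethylallyl pyrophosphate, read 10.03, 10.62 and 10.41 with sirEGFP and 8.79, 9.32 and 9.10 with oligo 1. The groups did not overlap, and Idi1 fell by 1.28 ± 0.17, or 2.44-fold (limma adjusted p 0.00154). Stard4, a carrier of cholesterol within cells, fell by 0.68 ± 0.11 (limma adjusted p 0.00444).

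The genes called lower with the largest change included others of unrelated known functions. Slc4a4, which encodes a sodium bicarbonate cotransporter, read 8.19, 7.93 and 7.86 with sirEGFP and 6.15, 6.28 and 6.30 with oligo 1. It had the largest fall of all genes named by rule, with tight and separate groups, at 1.75 ± 0.13, or 3.37-fold (limma adjusted p 3.08e-05). Rbmx2, which encodes a protein linked to the spliceosome, read 9.28, 9.46 and 9.43 with sirEGFP and 8.28, 8.29 and 8.25 with oligo 1. The oligo 1 arrays agreed closely and lay far below, and Rbmx2 fell by 1.12 ± 0.11 (limma adjusted p 0.000296). Atp5pb, which encodes a stator subunit of ATP synthase, fell by 1.09 ± 0.13 (limma adjusted p 0.000971). It was the 1 gene called among 81 of oxidative phosphorylation, whose median was 0.06. That is 1.235% of the list, near the 1.43% of all genes called lower.

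Higher genes were spread over several lists, and the 2 histone genes were the cell cycle members among them. The list of NRF2 and glutathione genes covers oxidant defence and its regulators. Of its 23 measured members, 6 were called higher (26.1%, beside 1.04% of all genes) and 0 lower, with a median of 0.32. Those 6 became 1 without sirEGFP array 2, 2 without oligo 1 array 3, and 3 without sirEGFP array 3, oligo 1 array 1 or the 3 extreme arrays. Txnip, 1 of the 6, encodes a protein that binds and inhibits thioredoxin. It read 6.29, 6.86 and 6.80 with sirEGFP and 8.20, 7.997 and 8.54 with oligo 1. The groups were over 1 log2 unit apart, and Txnip rose by 1.60 ± 0.20, or 3.03-fold (limma adjusted p 0.000956). Hmox1, or haem oxygenase, read 8.14, 7.45 and 7.68 with sirEGFP and 9.65, 8.61 and 9.68 with oligo 1. It rose by 1.56 ± 0.32 (limma adjusted p 0.0168), a call lost without sirEGFP array 2, sirEGFP array 3, oligo 1 array 1 or oligo 1 array 3 (highest adjusted p 0.101). Mgst1, a microsomal glutathione transferase, rose by 1.22 ± 0.22 (limma adjusted p 0.00874), a call lost without sirEGFP array 2 (adjusted p 0.0515).

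Of 5 other lists, 2 or 3 members each were called higher, and 0 lower. Inflammatory and NF-kB targets had 3 of 30 (10%), extracellular matrix genes 3 of 35 (8.57%), p53 targets 2 of 34 (5.88%), interferon-stimulated genes 2 of 34 (5.88%) and lysosome and autophagy genes 2 of 25 (8%), beside 1.04% of all genes. Without sirEGFP array 2 these counts were 1, 0, 1, 0 and 0. Without sirEGFP array 3 they were 1, 0, 1, 0 and 0, without oligo 1 array 3 they were 1, 0, 0, 0 and 0, and without oligo 1 array 1 they were 1, 0, 1, 1 and 0. Without 1 of the remaining 8 arrays they were 3 to 4, 1 to 4, 1 to 4, 2 and 0 to 9, with 9 lysosome genes without oligo 1 array 2. Without the 3 extreme arrays they were 1, 3, 1, 0 and 6. The lysosome list had a median of 0.45, but its array means ran along the within-group axis, at 0.78, 0.17 and 0.52 with oligo 1 and 0.23, -0.09 and -0.14 with sirEGFP, relative to the sirEGFP mean. Its median was 0.55 without the 3 extreme arrays. Ccl7, a monocyte chemokine, read 9.24, 9.14 and 9.39 with sirEGFP and 10.60, 10.29 and 10.06 with oligo 1. Ccl7 was higher on every oligo 1 array, by 1.06 ± 0.17 (limma adjusted p 0.00403). Ddit3, or CHOP, a stress-induced transcription factor, read 7.71, 7.70 and 7.64 with sirEGFP and 8.57, 8.60 and 8.61 with oligo 1. Its groups were tight and separate, and Ddit3 rose by 0.91 ± 0.13 (limma adjusted p 0.00273). Ddit3 was the 1 gene called among 27 of the integrated stress response (3.7%, beside 1.04% of all genes called higher). Against Mock, where Ddit3 read 8.50, 8.07 and 7.92, its difference was 0.43 and did not pass (limma adjusted p 0.117). Glycolysis and chaperone lists (22 and 19 members) had 0 calls in limma, with 5 and 1 members at an unadjusted p under 0.05.

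Genes with the largest rises included Ppargc1a, Ang2 and Havcr2. Ppargc1a, the coactivator PGC-1 alpha of mitochondrial biogenesis, read 6.58, 7.12 and 6.72 with sirEGFP and 8.49, 9.17 and 8.30 with oligo 1. It rose by 1.85 ± 0.22, or 3.61-fold (limma adjusted p 0.000827), with all oligo 1 arrays above all others except for an overlap with oligo 2. Ang2, a member of the angiogenin ribonuclease family, read 6.23, 6.52 and 6.58 with sirEGFP and 8.05, 8.63 and 8.05 with oligo 1. The groups were well apart, and Ang2 rose by 1.80 ± 0.19 (limma adjusted p 0.000442). Havcr2, the immune checkpoint receptor TIM-3, read 7.43, 7.51 and 7.94 with sirEGFP and 8.86, 8.79 and 8.95 with oligo 1, and rose by 1.24 ± 0.15 (limma adjusted p 0.000956). Of 11 macrophage and leukocyte markers, 1 was called higher (9.09%, beside 1.04% of all genes). It was Csf1r, the receptor of the macrophage growth factor CSF-1, at 0.83 ± 0.15 (limma adjusted p 0.00874), which was lost without sirEGFP array 2 (0.0606) and without the 3 extreme arrays. The list's array means, relative to sirEGFP, were 0.18, 0.10 and 0.10 with oligo 1 and -0.03, -0.01 and 0.04 with sirEGFP. The median level of its 11 markers was 5.13, and their part in the result was not tested.

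Setting oligo 1 directly against oligo 2 tested whether the 2 siRNAs differed. The difference holds no control value, although control arrays share in the estimate of the spread. Limma called 732 genes (3.67%), 459 lower (2.3%) and 273 higher (1.37%) with oligo 1. Of the 369 cell cycle members, 96 were lower with oligo 1 than with oligo 2 (26%) and 1 was higher, H2bc4, with a median difference of -0.37. Origin licensing had 11 of 26 members lower, DNA repair 15 of 40, kinetochore 13 of 43, cohesin and condensin 9 of 26 and mitotic kinases 4 of 36. Same-numbered arrays of the 2 siRNAs deviated together, which the fit above leaves out. With the replicate number as a block, 1094 genes were called, 669 lower and 425 higher. Of the cell cycle members 124 were then lower and 2 higher, with 14 cohesin and condensin genes and 7 mitotic kinase genes lower. In the fit without the block, 373 genes were called without oligo 1 array 3. The number was 328 to 451 without 1 oligo 2 array, lowest without oligo 2 array 3 and highest without oligo 2 array 1. Leaving out the 3 extreme arrays of the within-group axis gave 211.

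The comparisons of both siRNAs with sirEGFP share the sirEGFP arrays, so their values are given side by side with the direct test. Rad21 read 11.28, 11.34 and 11.24 with oligo 2, among or above the controls, and was lower with oligo 1 by 1.14 ± 0.12 (limma adjusted p 0.000135). Tpx2 read 9.29, 9.42 and 9.36 with oligo 2, level with sirEGFP, and was lower with oligo 1 by 1.05 ± 0.12 (limma adjusted p 0.000499). Exo1 read 8.51, 8.25 and 8.33 with oligo 2 and 7.45, 7.08 and 7.39 with oligo 1, a difference of -1.06 (limma adjusted p 0.00056). Some members were lower with both siRNAs. Fancb read 7.81, 7.77 and 7.96 with oligo 2, below sirEGFP by 0.79 in a called difference, and lower still with oligo 1 (limma adjusted p 0.0329). Mre11a changed by -0.69 with oligo 2 and -0.90 with oligo 1 against sirEGFP, and the difference between the siRNAs did not pass the test (-0.21, 95% interval -0.48 to 0.07, limma adjusted p 0.541).

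Beyond the cell cycle, oligo 1 and oligo 2 parted on single genes and shared others. Rab39b, a small GTPase of vesicle transport, read 7.85, 8.30 and 7.95 with oligo 2, 7.39, 8.01 and 7.65 with sirEGFP and 6.49, 6.68 and 6.75 with oligo 1. It was low on the oligo 1 arrays alone, and lower than with oligo 2 by 1.39 ± 0.16 (limma adjusted p 0.000392). Havcr2 read 7.07, 6.88 and 7.18 with oligo 2, below the oligo 1 arrays by 1.82 (limma adjusted p 2.41e-05). Txnip was higher with oligo 2, at 9.03, 8.79 and 9.26, than with oligo 1, by 0.78 in a called difference (limma adjusted p 0.0383). Cp, which encodes the copper protein ceruloplasmin, rose by 1.32 with oligo 1 and by 2.28 with oligo 2 against sirEGFP, and was likewise higher with oligo 2 (limma adjusted p 0.00816). Of the 208 genes called higher with oligo 1 against sirEGFP, 60 were also higher than with oligo 2 and 7 were lower. Of the 285 called lower, 154 were also lower than with oligo 2 and 0 were higher. Over all genes, 2.3% were lower and 1.37% higher than with oligo 2. Both sets were picked on the same oligo 1 arrays, which tilts these counts toward the direction of the call. In the cholesterol list 2 of 20 members differed between the siRNAs, with a median difference of -0.04. In the snoRNA list limma called 0 of 51, with 10 at an unadjusted p under 0.05, and a median difference of 0.25. With the replicate block 1 snoRNA was lower and 2 were higher.

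With Mock in place of sirEGFP, oligo 1 changed 549 genes (2.75%), 279 lower (1.4%) and 270 higher (1.35%). This comparison shares the oligo 1 arrays with the one above. Of the 369 cell cycle members 117 were lower and 2 higher, with a median of -0.45. Kinetochore genes had 27 of 43 members lower and mitotic kinases and APC/C 15 of 36, while replication fork genes had 4 of 30 and origin licensing 4 of 26. Mcm4, at 9.44, 9.41 and 9.72 with Mock, lay 0.38 higher there than with oligo 1, which did not pass (limma adjusted p 0.11). Tpx2, at 9.22, 9.54 and 9.48 with Mock, was lower with oligo 1 by 1.10 (limma adjusted p 0.000552).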

How the data were processed

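Total RNA of 12 NIH3T3 cultures was labelled (100 ng of RNA gave 2.5 ug of cDNA, per the labels' protocols) and hybridised to Affymetrix arrays. The authors deposited log2 values for 35512 probe sets; the scale was read from the values, and how they were summarised and normalized is not given in the sources used here. Limma is named in the submitters' processing notes, without a version. Probe sets with exactly 1 gene symbol in the platform annotation (21789; 1621 had several, 12102 none) were kept, with symbols checked by Entrez identifier against RefSeq GRCm38.p6 (21698 matched), and the brightest over 12 arrays represented each of 999 genes with several. No value column was left unmapped (0).

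Limma 3.58.1 in R 4.3.3 (lmFit, eBayes, two-sided) fitted 1 coefficient per group to all 12 arrays, with 8 residual degrees of freedom and Benjamini-Hochberg adjustment over 19938 genes. The scripts were tested on simulated data. Same-numbered oligo 1 and oligo 2 arrays deviated from their group means together (r 0.39, 0.29 and 0.12), a pairing read from the data and not stated in the labels. P-values measure the spread between these arrays, whose number limits the precision. Alternatives left out each array, the other groups, dim genes or the 3 extreme arrays of the within-group axis, added a replicate block or array weights, and changed the scaling, the probe set rule or the control.

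The comparison and the lists were chosen with earlier results of these data known. Genes were named by rule: Ubtf, the 15 highest and 15 lowest called genes with separate groups, up to 6 members of a cell cycle list and 4 of any other with the smallest p, the 6 highest and 6 lowest by the difference between the siRNAs, and 3 on each side of the threshold. Clone-named and predicted genes were skipped. Ska1, Pcna, Ccnd1, Cdk4 and Foxm1 were named outside this rule, after their values had been seen.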

Additional observations from a re-analysis of the deposited data

Results flagged for a closer look

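Oligo 1 and oligo 2 target the same gene, yet 732 genes differed between them in the direct limma test without the replicate block. Among cell cycle list members, 96 were lower with oligo 1 than with oligo 2. Ubtf itself differed by 0.05 between them (limma adjusted p 0.942). Dtna, which encodes a cytoskeletal protein of the dystrophin complex, moved in opposite directions with the siRNAs. Beside sirEGFP arrays at 7.29, 7.12 and 7.36, it read 7.66, 7.94 and 8.04 after oligo 1 but 6.58, 6.65 and 6.62 after oligo 2, and oligo 1 minus oligo 2 was 1.27 (1.265 before rounding, limma adjusted p 9.71e-05). Its call against sirEGFP with oligo 1 was lost without sirEGFP array 2 or oligo 1 array 3 (highest adjusted p 0.0989). The cDNA-named gene U90926 was lower with oligo 1 (6.23, 6.61 and 6.28) and higher with oligo 2 (8.49, 8.72 and 8.85) than with sirEGFP (7.50, 7.92 and 7.58), and oligo 1 minus oligo 2 was -2.32 (limma adjusted p 7.43e-06). Both genes were picked for their opposite calls after values had been seen.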

How the results depend on the processing

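Over fits that left out 1 array, the genes called against sirEGFP ranged from 155 to 863, those called higher from 70 to 453, those called lower from 85 to 410, the cell cycle members called lower from 41 to 126, the genes called against oligo 2 from 328 to 833 and the Ubtf change from -0.71 to -0.39, with no call of Ubtf. With only the 6 arrays compared, 101 genes were called, 40 higher and 61 lower, with 34 cell cycle members lower. Without the 3 extreme arrays of the within-group axis the counts were 255, 147, 108 and 47, and 211 genes differed from oligo 2. Array weights, which gave oligo 1 array 3 a weight of 8.92 and the other arrays 0.42 to 1.67, called 3814 genes, 1975 higher and 1839 lower, with 221 cell cycle members lower, 3164 genes different from oligo 2 and Ubtf at -0.63 (called). The mean of Mock and sirEGFP as control called 753, 360 of them higher, with Ubtf at -0.64, and Mock alone gave Ubtf at -0.74 (both called). Median centring called 457 genes, with 31.1% higher in place of 42.2%, and moved the median over all genes from 0.02 to -0.03. Markers that were not called changed sign: Krt18 (-0.02) and Cldn7 (-0.004) with array weights and -0.07 and -0.053 without those 3 arrays, and with Mock as control Cd68 (-0.079), Fabp4 (-0.082), Cdh1 (0.13) and Cd36 (0.041). The cause of these changes was not tested. Of 4776 values of 200 named genes, 4070 kept direction and call, 551 lost the call, 147 gained it and 8 changed sign. The 4070 include genes that stayed uncalled, since 131 of the 201 named genes, Ubtf among the 201, were called. Settings that left out Mock or oligo 2 arrays, or added the replicate block, could not change a difference from sirEGFP. These totals are thus not a measure of how firm the calls are.

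Replicate numbers are shared by the groups, but deviations of same-numbered sirEGFP and oligo 1 arrays correlated at 0.55, 0.29 and -0.08, so the numbers were not taken to pair these arrays. Between oligo 1 and oligo 2 the correlations were 0.39, 0.29 and 0.12, each over 0.1. For that comparison a fit with the numbers as pairs is given beside the main one. Its printed counts and adjusted p-values come from the fit without the block, unless the block is named. With the replicate block 878 genes were called, 455 higher and 423 lower, with 144 cell cycle members lower, 1094 genes different from oligo 2 and Ubtf called at -0.55 (limma adjusted p 0.0172). Of 12 arrays, 9 correlated best with their own number.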

Other observations

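Genes of the primary cilium, an antenna-like organelle that is resorbed before mitosis, leaned upward with oligo 1. The list was drawn up after the values had been seen, so its counts are a description. Of 49 measured members, 6 were called higher against sirEGFP (12.2%, beside 1.04% of all genes) and 0 lower, with a median of 0.21 and 42 changes above 0. The 6 were Wdr19 (1.09), Dync2li1 (1.01), Wdpcp (0.94), Tmem67 (0.92), Rpgrip1l (0.66) and Ift172 (0.60), whose products act in ciliary transport or at the base of the cilium. The Rpgrip1l call was lost without sirEGFP array 3, and that of Ift172 without sirEGFP array 2, oligo 1 array 1 or oligo 1 array 3. Relative to sirEGFP, the array means of the list were 0.31, 0.29 and 0.33 with oligo 1, 0.27, 0.05 and 0.18 with oligo 2, 0.06, -0.01 and 0.07 with Mock, and 0.04, 0.00 and -0.04 with sirEGFP. The oligo 1 arrays were above all others. Between the siRNAs, 1 member was higher and 2 were lower with oligo 1. The count of 6 became 10 without oligo 1 array 2, and was 5 to 8 without any other of the 6 arrays compared.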
